A study of Mus musculus with 2 samples.

Results

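The tumour necrosis factor (TNF) superfamily consists of ligands and receptors by which immune cells, glia and neurons exchange signals of activation, survival and death. Members were taken by gene name: every probe apart from controls whose name begins with *Tnfsf* or *Tnfrsf*, together with *Tnf*, *Lta*, *Ltb*, *Ltbr*, *Fas*, *Fasl*, *Cd40*, *Cd40lg*, *Cd27*, *Cd70* and *Ngfr*. This rule found 43 of 37005 names and 70 of 56605 probes. They comprised 17 ligand genes with 25 probes, 25 receptor genes with 44 probes and 1 probe for *Tnfsf13os*, a noncoding RNA from the strand opposite the *Tnfsf13* gene.

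The ligands are mostly membrane proteins that act as trimers, and some are shed from the cell surface by proteases. Receptors with a death domain recruit adaptors such as TRADD and FADD, which lead to NF-kB activation or to caspase activation and cell death. Most of the other receptors bind TRAF proteins, which feed into the NF-kB and MAP kinase pathways. In injured brain tissue, TNF is produced largely by microglia.

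The samples were 1 array of WT and 1 array of Cx30 KO striatum, each from the pooled RNA of 2 male mice. Both groups were 8 weeks old and received MPTP, a toxin that damages dopaminergic neurons, as 4 injections of 20 mg/kg separated by 2 h, and both were taken on day 1. The strain is given as C57BL/6J for WT and Cx30-LacZ for Cx30 KO, a line that lacks *Gjb6*, the gene for the astrocytic gap junction protein connexin 30. The methods describe the WT mice as non-mutant offspring of heterozygous parents. Mice without MPTP were not analysed here, so every comparison below is Cx30 KO against WT after the toxin. With 1 array per genotype no test between the groups could be run and no spread between mice is known. The error given after ± is the scanner software's estimate for the spot.

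The knocked-out gene *Gjb6* measured 1788 ± 179 in WT against 111 ± 11.6 in Cx30 KO, which was 15.4-fold lower. Its other probe was at least 4.33-fold lower. On each array 298 probes were printed repeatedly, and their median coefficient of variation was 2.72% in WT against 2.83% in Cx30 KO. The SD of a log2 ratio between single spots was 0.07. Different probes for the same gene differed by more, with an SD of 0.26 in log2 ratio over 7147 genes and 0.17 over the 9 members with several detected probes. All 8 striatal neuron markers were well above background, with a median log2 ratio of −0.05. The 6 cortical neuron markers had a median of 3.24, and their summed processed signal was 175 in WT against 1391 in Cx30 KO.

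Of the 42 ligand and receptor genes, 26 counted as detected, which here means that the scanner software flagged the signal of WT, of Cx30 KO or of both as well above background. They were 9 of 17 ligands and 17 of 25 receptors. By probe the share was 52.2% of 69 member probes, compared with 59.9% of all probes. The remaining 8 ligands, *Cd40lg*, *Cd70*, *Fasl*, *Tnfsf4*, *Tnfsf11*, *Tnfsf13b*, *Tnfsf14* and *Tnfsf18*, were below this limit at all 12 of their probes, where signals ran from 3.78 to 11.4. The remaining 8 receptors, *Cd27*, *Tnfrsf8*, *Tnfrsf11b*, *Tnfrsf13c*, *Tnfrsf17*, *Tnfrsf18*, *Tnfrsf22* and *Tnfrsf26*, were below it at all 10 probes, with signals from 3.71 to 19.999. These genes have no measured ratio, and many of them, such as *Cd27*, *Cd70* and *Tnfrsf17*, are known from lymphocytes. No member probe (0) was saturated.

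**Figure D1:**
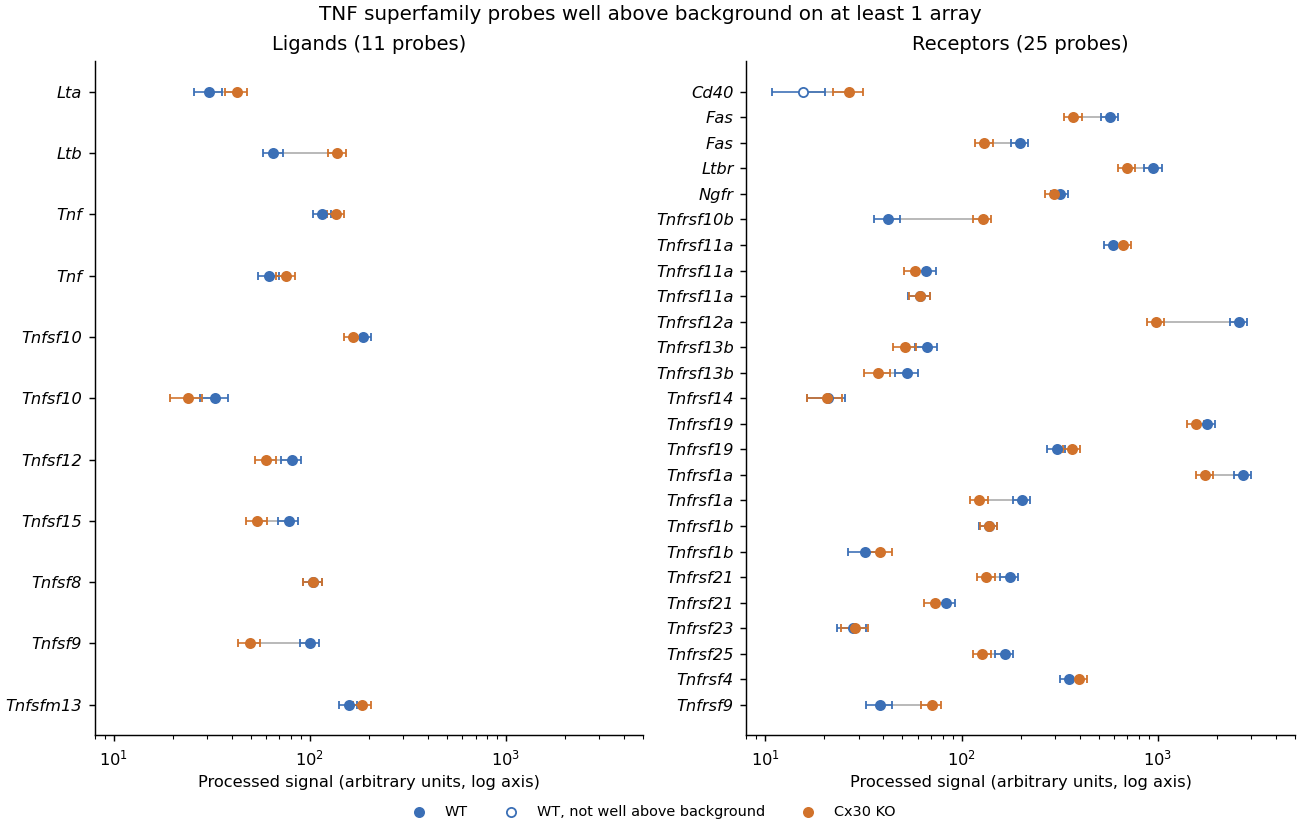
Processed signal in arbitrary units (log axis) of the 11 ligand and 25 receptor probes detected in WT or Cx30 KO. Blue points are WT and orange points are Cx30 KO, 1 array each, bars are the scanner software's spot error, and the open point is not well above background. The widest gaps are at Tnfrsf12a, which was higher in WT, and at Ltb and Tnfrsf10b, which were higher in Cx30 KO.

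What a probe matches decides how its value can be read, and the probe standing for a gene was unusual for *Fas* and for *Tnfsf10*. The probe of *Fas* with the highest signal was designed on the long terminal repeat of an ETn retroelement within a *Fas* transcript, and the array design places it on chromosome 4 (chr4:40555124-40555183, minus strand, mm9) and not on chromosome 19 with the other *Fas* probes. The probe of *Tnfsf10* with the highest signal (chr3:27241288-27241347, plus strand, mm9) matches a single cDNA and consists of 4 copies of a 15-base unit, of which the first copy is in capitals. It is the only probe (1) on the array that carries this unit in tandem. *Tnfrsf19* is shown because this probe (chr14:61615452-61615511, minus strand, mm9) and the other detected probe of the gene had log2 ratios of opposite sign. The probe sequences, 5′ to 3′, are as follows.
Fas, ETn probe: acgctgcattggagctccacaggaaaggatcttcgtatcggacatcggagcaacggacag
Tnfsf10, repeat probe: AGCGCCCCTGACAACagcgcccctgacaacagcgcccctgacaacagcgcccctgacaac
Tnfrsf19, second probe: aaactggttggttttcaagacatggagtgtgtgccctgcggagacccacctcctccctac

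Cx30 KO and WT striatum differed in both directions within the superfamily. Of the 26 genes, 13 had a log2 ratio below 0 and 13 above 0, although *Tnfsf8*, *Tnfrsf14*, *Tnfrsf19* and *Tnfrsf23* changed sign under at least 1 other way of processing. The median was 0.08 for ligands and −0.03 for receptors, compared with 0.03 over all 22012 detected genes. The study's criteria call a gene lower at a ratio of at most 0.66 with a Z-score of at most −2, and higher at a ratio of at least 1.5 with a Z-score of at least 2. Here the Z-score is the distance of a log2 ratio from the mean of the 1000 probes nearest in mean signal, in SDs of those probes. The criteria were met by 2 genes that were lower, *Tnfrsf12a* and *Tnfsf9*, and by 2 that were higher, *Ltb* and *Tnfrsf10b*. Of all genes 3.39% met them as lower and 2.39% as higher, or 5.77% in either direction, against 15.4% (4 of 26) of the members. In whole tissue, fewer cells of a type and less RNA per cell cannot be told apart.

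**Figure D2:**
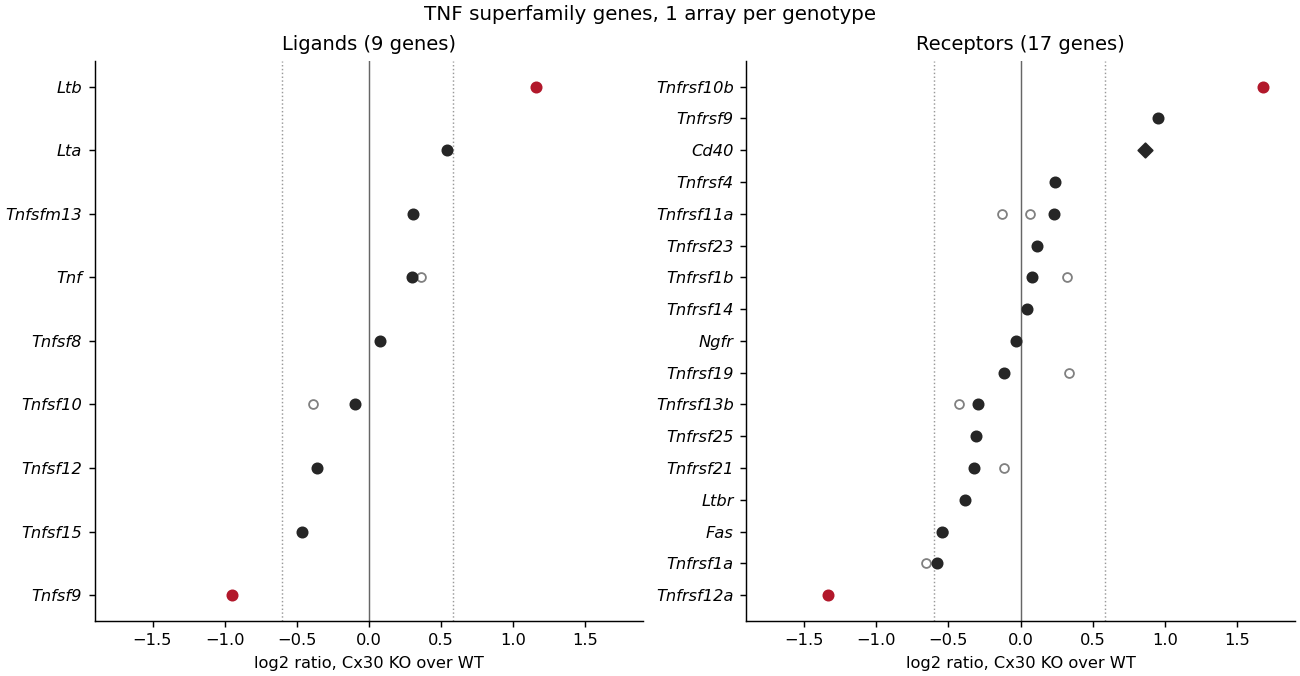
Log2 ratio of Cx30 KO over WT for the 9 ligand and 17 receptor genes detected in WT or Cx30 KO. Filled circles are the probe standing for the gene, red ones met the criteria, the diamond (Cd40) was well above background in Cx30 KO only and is drawn at its measured ratio, open circles are other detected probes, and dotted lines mark ratios of 0.66 and 1.5. Ligands run from −0.95 for Tnfsf9 to 1.16 for Ltb, and receptors from −1.33 for Tnfrsf12a to 1.68 for Tnfrsf10b.

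Among the ligands, those of the lymphotoxin locus were all above 0. *Ltb* encodes lymphotoxin beta, which anchors lymphotoxin alpha in the membrane and signals through the lymphotoxin beta receptor. Its processed signal was 65.0 ± 7.66 in WT against 138 ± 14.2 in Cx30 KO, at 1 probe. The log2 ratio was 1.16 with a Z-score of 2.73. After normexp background correction with quantile normalisation the log2 ratio was 0.67, and the criteria were still met. *Lta*, which encodes lymphotoxin alpha, had 30.6 ± 4.97 in WT against 42.4 ± 5.45 in Cx30 KO, so that the log2 ratio was 0.54 with a Z-score of 0.80. *Tnf*, the founding cytokine of the family, had 116 ± 12.3 in WT against 136 ± 14.1 in Cx30 KO at the probe with the higher signal (log2 ratio 0.30) and 61.9 ± 7.46 and 75.5 ± 8.39 at the other (0.36). The probes of *Ltb*, *Tnf* and *Lta* lie within 7.24 kb on chromosome 17 (mm9), and of the 3 only *Ltb* met the criteria, a call that was lost with a Z-score based on all detected probes.

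*Tnfsf9* encodes the ligand of the T cell costimulator CD137. Its signal was 100.1 ± 10.9 in WT against 49.3 ± 6.19 in Cx30 KO. The log2 ratio of −0.95 gave a Z-score of −2.11, just inside the limit, and the gene did not meet the criteria under 4 of 12 other ways of processing. *Tnfsf15* and *Tnfsf12* were also below 0 without meeting the criteria. *Tnfsf15*, the endothelial cytokine TL1A, had 78.1 ± 8.95 in WT against 53.8 ± 6.63 in Cx30 KO, and *Tnfsf12*, which encodes TWEAK, had 80.7 ± 9.32 and 59.9 ± 7.30. Their log2 ratios were −0.47 and −0.36.

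*Tnfsf10*, which encodes the death ligand TRAIL, had a log2 ratio of −0.09 at the repeat probe shown above (186 ± 19.1 in WT against 166 ± 17.1 in Cx30 KO) and of −0.39 at the probe for its RefSeq transcript (32.8 ± 5.37 and 23.8 ± 4.44). *Tnfsf8*, the CD30 ligand, had 103 ± 11.4 in WT against 104 ± 11.2 in Cx30 KO, and the log2 ratio was 0.08. The probe of *Tnfsfm13*, a fusion transcript that joins *Tnfsf12* to *Tnfsf13*, also matches transcripts of *Tnfsf13* itself, which encodes the B cell factor APRIL. It gave 158 ± 16.4 in WT against 186 ± 19.0 in Cx30 KO, so that the log2 ratio was 0.30. Within 7.99 kb of that locus on chromosome 11, *Tnfsf12* was thus below 0, whereas *Tnfsfm13* and the opposite-strand RNA *Tnfsf13os* were above it. *Tnfsf13os* had 29.9 ± 6.10 in WT against 49.7 ± 6.81 in Cx30 KO, and its log2 ratio of 0.80 gave a Z-score of 1.30.

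The receptor that differed most by Z-score was *Tnfrsf12a*. It encodes Fn14, the receptor of TWEAK, which is known to be induced by tissue injury and growth factors. At its 1 probe (chr17:23812746-23812805, minus strand, mm9) the processed signal was 2611 ± 261 in WT against 985 ± 98.6 in Cx30 KO, a 2.52-fold lower signal. The log2 ratio of −1.33 gave a Z-score of −4.56. Its ligand *Tnfsf12* was lower by 1.28-fold, which did not meet the criteria.

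Most death-domain receptors had lower signals in Cx30 KO than in WT without meeting the criteria. All 6 were detected, 5 of them had a log2 ratio below 0, and their median was −0.32, whereas 45.4% of all genes were below 0. *Tnfrsf1a*, the main receptor of soluble TNF, had 2730 ± 273 in WT against 1738 ± 174 in Cx30 KO. Its log2 ratio of −0.58 had a Z-score of −2.19, and its ratio of 0.669 lay just outside the limit of 0.66. At its other probe (204 ± 20.8 in WT against 123 ± 12.9 in Cx30 KO) the log2 ratio was −0.66 and met the ratio limit, but the Z-score was −1.80. Both probes of this receptor were therefore lower in Cx30 KO and each missed 1 of the 2 limits. With arrays scaled by the median, the gene met them.

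*Fas*, the receptor of Fas ligand, was measured by 1 detected probe on its own chromosome. This probe, on chromosome 19 for the RefSeq transcript, gave 199 ± 20.5 in WT against 130 ± 13.7 in Cx30 KO, and the log2 ratio was −0.54 without meeting the criteria. The ETn probe shown above gave 569 ± 57.1 in WT against 372 ± 37.4 in Cx30 KO, also at −0.54. It may report ETn elements and not *Fas*, and is therefore no second measurement of the receptor. The third *Fas* probe was not well above background on either array, and *Fasl* had no measured ratio.

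*Tnfrsf21*, the receptor DR6, had 176 ± 18.2 in WT against 134 ± 14.02 in Cx30 KO (log2 ratio −0.32) and, at its other probe, 83.3 ± 9.65 and 73.3 ± 8.55 (−0.11). *Tnfrsf25*, the receptor DR3 of TL1A, had 166 ± 17.3 in WT against 128 ± 13.5 in Cx30 KO, so that the log2 ratio was −0.31. *Ngfr*, the low-affinity neurotrophin receptor p75, was nearly level, with 318 ± 32.05 in WT, 296 ± 29.8 in Cx30 KO, at a log2 ratio of −0.03.

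*Tnfrsf10b*, the mouse receptor of TRAIL, was the death-domain receptor that was higher. Its signal was 42.1 ± 6.42 in WT against 128 ± 13.5 in Cx30 KO, and the log2 ratio of 1.68 gave a Z-score of 3.34. After normexp background correction with quantile normalisation the log2 ratio was 0.84, and the criteria were still met. The result rests on 1 of 3 probes (chr14:70184141-70184200, plus strand, mm9). Both others were not well above background on either array, including a probe for the same RefSeq transcript (chr14:70183189-70183248) with 7.74 ± 4.15 in WT against 3.58 ± 3.61 in Cx30 KO. *Tnfrsf10b* also lies on chromosome 14, 12.4 Mb from *Gjb6*. Within 20 Mb of *Gjb6* the criteria called 15.1% of 444 genes, compared with 5.55% of 21077 genes on other chromosomes, so that the loss of *Gjb6* and a strain difference in the flanking chromosome cannot be told apart here. *Tnfrsf19*, 3.84 Mb from *Gjb6*, did not meet the criteria at either detected probe.

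**Figure D3:**
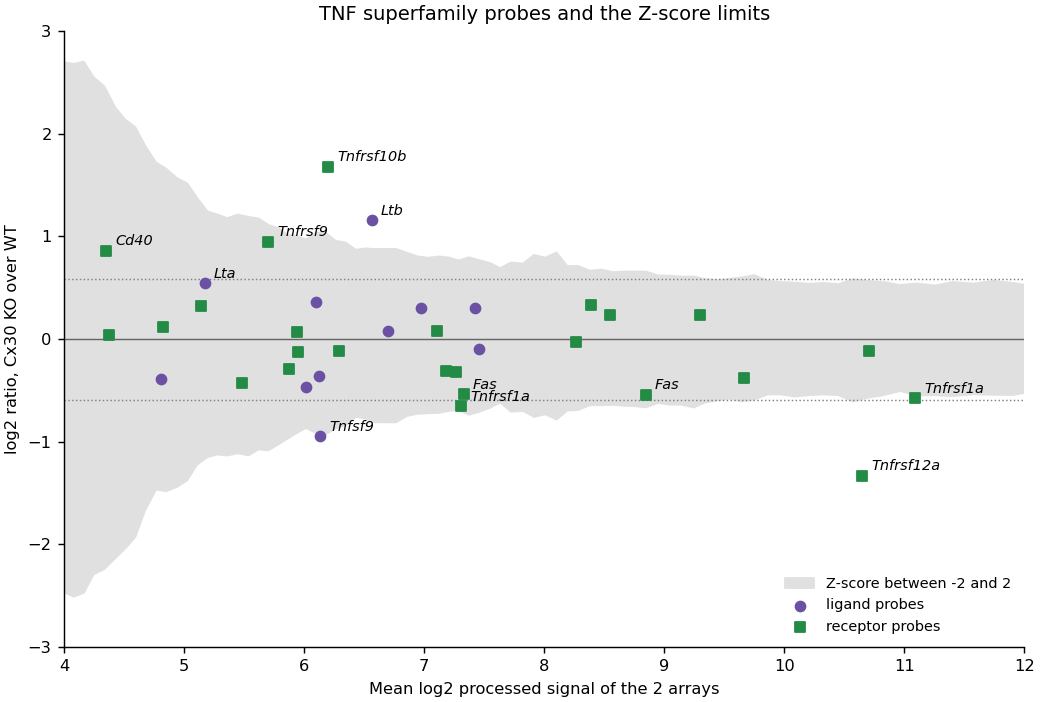
Log2 ratio of Cx30 KO over WT against the mean log2 processed signal for the 36 member probes detected in WT or Cx30 KO, with ligand probes as circles and receptor probes as squares. The grey band spans Z-scores between −2 and 2 and dotted lines mark ratios of 0.66 and 1.5, and probes beyond 0.5 in log2 ratio are named. The band widens at low signals, where Tnfrsf9 at 0.95 lies inside it, whereas Tnfsf9 at −0.95 lies just outside. Cd40 is drawn at its measured ratio of 0.86, although its WT signal was not well above background and only a bound is known.

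Receptors that signal through TRAF proteins showed no shared direction. Of 15 such genes 10 were detected, 4 below 0 and 6 above 0, with a median of 0.06, and *Tnfrsf12a* was the only one (1) to meet the criteria. *Ltbr*, the lymphotoxin beta receptor, had 952 ± 95.3 in WT against 695 ± 69.6 in Cx30 KO, so that the log2 ratio was −0.38. *Tnfrsf13b*, the APRIL and BAFF receptor TACI, was below 0 at both detected probes, with 66.4 ± 8.26 and 51.6 ± 6.74 at one (log2 ratio −0.29) and 53.0 ± 7.16 and 37.5 ± 5.72 at the other (−0.43).

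*Tnfrsf9* encodes CD137 itself and was among the higher receptors. It had 38.3 ± 5.86 in WT against 70.3 ± 8.04 in Cx30 KO. The log2 ratio of 0.95 passed the ratio limit, but among dim probes with a spread of 0.55 the Z-score was 1.71, and the second probe of the gene was not well above background. *Cd40*, the receptor by which T cells activate antigen-presenting cells, was well above background in Cx30 KO only. Its signal there was 26.8 ± 4.76, compared with 15.5 ± 4.71 in WT, and it was at least 1.42-fold higher. Beyond the ratio limits alone lay 2 lower and 4 higher of the 26 genes, against 6.21% and 7.22% of all genes. These 4 include *Tnfrsf9* and, only by its measured ratio of 1.82 over a WT signal not well above background, *Cd40*, whose bound of 1.42-fold does not reach the limit of 1.5.

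Of the other TRAF-binding receptors, *Tnfrsf1b*, *Tnfrsf4* and *Tnfrsf14* had log2 ratios from 0.04 to 0.32 and did not meet the criteria. *Tnfrsf1b*, the second TNF receptor and abundant on microglia, had 137 ± 14.4 in WT against 138 ± 14.3 in Cx30 KO at a probe for cDNA clones (log2 ratio 0.08) and 32.4 ± 5.93 and 38.5 ± 5.90 at the RefSeq probe (0.32). *Tnfrsf4*, the T cell costimulator OX40, had 353 ± 35.7 in WT against 396 ± 39.8 in Cx30 KO (0.24). *Tnfrsf14*, the LIGHT receptor, had 20.9 ± 4.60 in WT against 20.5 ± 4.15 in Cx30 KO (0.04), close to the lowest signals well above background. *Tnfrsf23*, a decoy receptor of TRAIL that was counted apart from the TRAF-binding receptors, was similarly dim. It had 27.9 ± 4.84 in WT against 28.8 ± 4.50 in Cx30 KO (0.12).

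For a pair of receptors the sign depended on the probe. *Tnfrsf11a* encodes RANK, the receptor that drives osteoclast formation, and had 596 ± 59.8 in WT against 666 ± 66.8 in Cx30 KO at the probe with the highest signal (log2 ratio 0.23), whereas its other probes gave 0.07 and −0.13. *Tnfrsf19*, the receptor TROY, had 1788 ± 179 in WT against 1570 ± 157 in Cx30 KO at one probe (−0.12) and 305 ± 30.9 and 366 ± 36.8 at the second probe, whose sequence is given above (0.33). No direction can be given for either gene.

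Ligands were next set beside their receptors. Of 20 ligand–receptor pairs, both partners were detected in 9, the receptor only in 6, the ligand only in 1 and neither in 4. Of the 9 pairs, 3 had log2 ratios of the same sign and 6 of opposite sign. The list is not complete, since TRAIL with its decoy receptor *Tnfrsf23* is not in it. *Tnf* and *Tnfrsf1a* each occur in more than 1 of the pairs, so the pairs are not independent. The share of opposite signs among other pairs of genes was not computed. In the TRAIL pair the receptor met the criteria as higher while the ligand was at −0.09. In the CD137 pair the ligand was at −0.95 and the receptor at 0.95. The lymphotoxin beta pair ran the other way, with the ligand at 1.16 and the receptor at −0.38. The TWEAK pair was below 0 at both ends, with −0.36 for *Tnfsf12* and −1.33 for *Tnfrsf12a*.

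**Figure D4:**
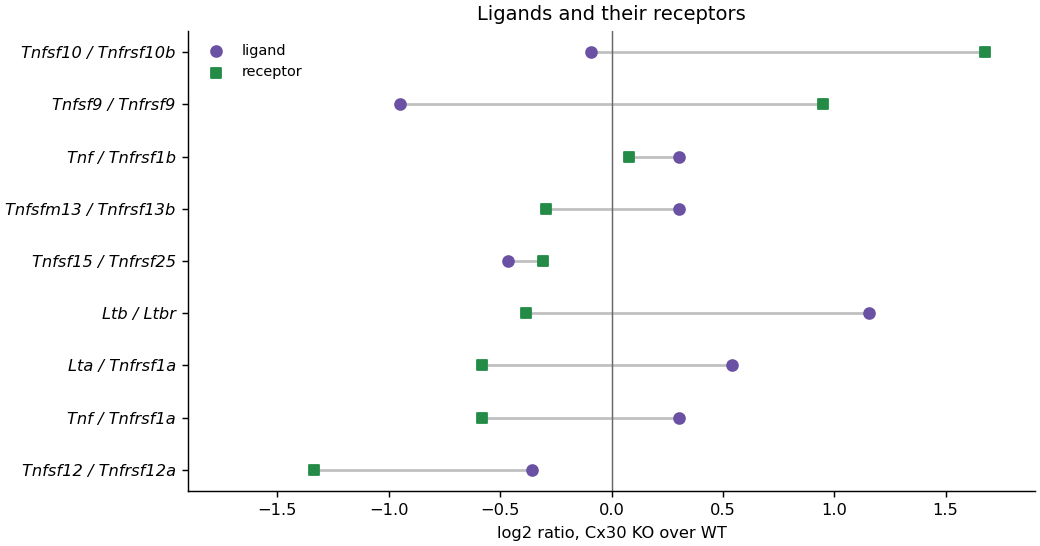
Log2 ratio of Cx30 KO over WT for the 9 ligand and receptor pairs in which both genes were detected, 1 pair per row, with ligands as circles and receptors as squares. In 6 pairs the 2 points lie on opposite sides of 0, and in 3 pairs (Tnf with Tnfrsf1b, Tnfsf15 with Tnfrsf25, and Tnfsf12 with Tnfrsf12a) on the same side.

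Of the genes that act downstream of these receptors, at most 1 in each list met the criteria, which 5.77% of all genes met. Of 26 adaptors and death-domain kinases, 25 were detected with a median log2 ratio of −0.06. *Casp8*, the initiator caspase of death receptors, was the only one (1) to meet the criteria, with 113 ± 11.98 in WT, a log2 ratio of −1.06 and a Z-score of −2.41. All 18 NF-kB subunits and regulators were detected with a median of −0.05. Of these *Bcl3*, a nuclear cofactor of NF-kB, was the only one (1) to meet the criteria, with 1133 ± 113 in WT. Its log2 ratio was −1.16, at a Z-score of −3.96. The subunits *Nfkb1*, *Rel* and *Rela* were at −0.22, −0.30 and 0.01, and the feedback inhibitors *Nfkbia* and *Tnfaip3* at 0.04 and 0.05.

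Among 22 genes known to be induced by TNF and NF-kB, 17 were detected with a median of −0.02. *Cxcl10*, a chemokine for T cells, met the criteria as lower, with a log2 ratio of −1.04 and a Z-score of −2.45. *Icam1*, *Vcam1* and *Ccl2* were at 0.11, −0.41 and −0.42, and *Sele*, *Cxcl2*, *Ccl20*, *Il6* and *Il1b* were not well above background on either array. Of 9 proteases and regulators that process the ligands 8 were detected, and none (0) met the criteria. Among them was *Adam17*, the protease that sheds TNF, at −0.36. Of 10 measured partners of *Ngfr* and *Tnfrsf19*, 9 were detected and 1, the Nogo receptor gene *Rtn4r*, met the criteria as higher, with 24.4 ± 5.34 in WT, a log2 ratio of 1.60 and a Z-score of 2.71. *Eda* and *Relt*, superfamily members with other names, were at 0.24 and −0.03, and *Edar* and *Eda2r* were not well above background.

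**Figure D5:**
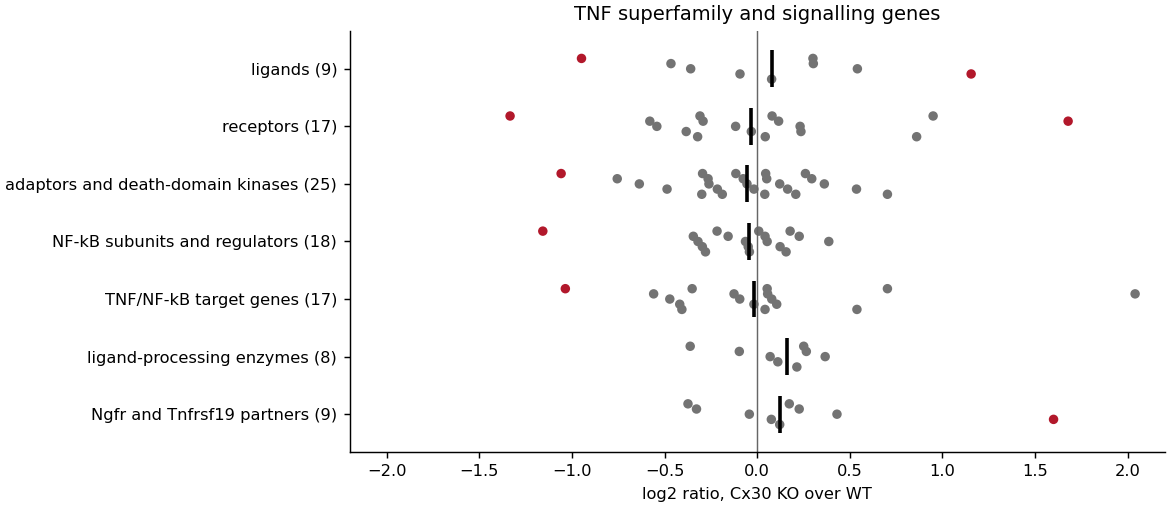
Log2 ratio of Cx30 KO over WT for ligands, receptors and 5 lists of genes of the same pathways, with 1 point per detected gene, the number of genes in brackets and a black bar at the median. Red points met the criteria, and the position of a point across its row carries no value. Cd40, Birc3, Cxcl1 and Ccl5 were well above background in Cx30 KO only and are drawn at their measured ratios. Ccl5, at 2.04, lies farthest right, although its bound of at least 0.97-fold shows no difference. The medians lie between −0.06 and 0.16, and the list of adaptors, that of NF-kB subunits and that of target genes each hold 1 red point on the lower side.

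Cell type markers differed alongside these genes. Microglial markers were below 0 in 7 of 8 cases, 4 of which met the criteria as lower (*P2ry12*, *Aif1*, *Tmem119* and *Cx3cr1*), with a median log2 ratio of −0.52 and a summed signal of 91249 in WT against 83919 in Cx30 KO, most of it from *Itgam*, which was at 0.13. All 7 oligodendrocyte markers were below 0, 4 met the criteria, and the sum was 146041 in WT against 88569 in Cx30 KO. Of the 6 astrocyte markers *Gfap* and *Aqp4* met the criteria as lower, with log2 ratios of −1.62 and −0.95. *Aldh1l1* was also below 0 at −0.32, whereas *Slc1a2*, *Slc1a3* and *Gja1* were above 0 at 0.17, 0.01 and 0.03. The astrocyte sum was 34307 in WT against 27909 in Cx30 KO, and *Gfap* accounts for most of its fall. The 6 endothelial markers went both ways, 4 below 0 and 2 above 0, with a median log2 ratio of −0.22. *Flt1* met the criteria as lower (−0.93), and *Tek*, *Slco1a4* and *Cdh5* were at −0.47, −0.41 and −0.04. *Cldn5* and *Pecam1* were above 0 (0.30 and 0.58). The endothelial sum was 7122 in WT against 5790 in Cx30 KO. Without *Flt1* this sum did not fall, but most of what remains is *Cldn5*. For *Ltb*, *Tnfrsf9* and *Cd40*, which are known from lymphocytes, the T cell markers *Cd3d*, *Cd3g* and *Cd8a* and the B cell marker *Cd79a* were not well above background on either array. The detected T cell markers *Cd3e*, *Cd4* and *Lck* had log2 ratios of 0.07, −0.04 and 0.27. Their summed signal, unscaled and mostly *Cd4*, was 6810 in WT against 6405 in Cx30 KO, and that of the detected B cell markers, *Ms4a1* and *Cd79b*, was 88.9 and 62.3. The part of any of these cell types, and of the cortical markers, in the differences of *Tnfrsf12a*, *Tnfsf9*, *Ltb* and *Tnfrsf10b* was not tested.

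Promoters of the members were searched on both strands over the 250 bases before the transcription start, which RefSeq tables (GRCm38.p6) hold for 32 of the member genes. The NF-kB consensus occurred in 12.5% of them (*Ltb*, *Tnfrsf8*, *Tnfrsf9* and *Tnfrsf25*) against 8.23% of 27025 promoters in all. The AP-1 motif TGANTCA occurred in 15.6% against 7.82%, and the GC box GGGCGG in 50% against 35.4%. Of the 4 genes that met the criteria, 2 have an entry, *Tnfrsf12a* (chr17:23677450-23677699, minus strand) and *Ltb* (chr17:35194257-35194506, plus strand). They are printed 5′ to 3′ because these genes differed in opposite directions, and capitals mark 5 GC boxes, partly on the other strand, in *Tnfrsf12a*, and 1 match to the NF-kB consensus in *Ltb*. A match describes the letters of the window and not the binding of a factor.
Tnfrsf12a, promoter: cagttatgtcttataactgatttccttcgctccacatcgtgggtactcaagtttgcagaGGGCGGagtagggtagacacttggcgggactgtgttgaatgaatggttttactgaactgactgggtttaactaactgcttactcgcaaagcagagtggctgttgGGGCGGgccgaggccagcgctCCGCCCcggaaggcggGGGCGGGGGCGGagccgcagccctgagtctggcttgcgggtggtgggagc
Ltb, promoter: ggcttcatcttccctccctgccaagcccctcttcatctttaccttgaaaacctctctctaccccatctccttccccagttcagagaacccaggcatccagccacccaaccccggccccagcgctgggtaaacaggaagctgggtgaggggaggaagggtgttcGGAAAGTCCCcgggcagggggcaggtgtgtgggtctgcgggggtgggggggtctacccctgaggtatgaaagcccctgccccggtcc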

How the data were processed

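Cy3-labelled striatal RNA was hybridised to single-colour Agilent arrays of 60-mer probes. The intensities deposited by the authors are signals processed by Feature Extraction (version 10.7.1.1 in the file headers, 9.5.1.1 in the submitters' processing notes), background-subtracted and detrended within the array and not normalised between arrays. The authors' normalised table holds linear intensities whose sorted columns differ by at most 0.0194%. Its normalisation is not named in the sources used here, but 99.99% of its values lay within 1% of quantile-normalised processed signals. Probe positions refer to mm9.

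Control spots and outlier spots were left out, log2 signals were averaged over the spots of each probe, and each array was scaled to its 75th percentile (401.2 in WT and 381.8 in Cx30 KO). The flag for a signal well above background had to be set on 50% or more of a probe's spots, and was set so for 56.6% of all probes on the WT array and 58.2% on that of Cx30 KO. Signals printed are unscaled, and ratios are scaled. Among the detected probes of a gene, the one with the highest mean signal stood for it. A gene seen on 1 array was bounded by the higher of the lowest signal well above background (19.8 in WT, 17.4 in Cx30 KO) and its own signal on the other array. Older symbols of 2038 probes were updated with a RefSeq table. The members, pairs, roles and lists were chosen with earlier results of these data known. Every detected member was named, and list genes were named when they met the criteria, with a few others added as examples after their values were seen. Precision is limited by the number of arrays. The alternatives were other scalings, normexp background correction with limma 3.58.1 (offset 50), the authors' table, other probe and signal filters, other reference probes for the Z-score and other ratio limits. The method was tested on simulated data. Changes were planted there only in bright probes, so recovery at signals as low as those of *Tnfsf9*, *Ltb* and *Tnfrsf10b* was not tested. Python 3.11.15 with numpy 2.4.6 and pandas 2.3.3 and R 4.3.3 were used.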

Additional observations from a re-analysis of the deposited data

How the results depend on the processing

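*Tnfrsf12a* met the criteria under all 12 alternatives run, with a log2 ratio from −1.38 to −1.27. Several of them could hardly change its call. Its 1 probe is for a RefSeq transcript and was detected on both arrays, so the probe and signal filters leave its ratio unchanged. The ratio limits alone only loosen the criteria. Of these alternatives, quantile normalisation and the authors' table gave nearly the same values and are not independent checks. The 2 lower genes became 1, without *Tnfsf9*, after normexp correction with quantile normalisation, with a Z-score over the 200 nearest or over all detected probes, and at ratio limits of 2 and 0.5. Scaling by the median gave 3, adding *Tnfrsf1a*. The 2 higher genes became 1, without *Ltb*, with the Z-score over all detected probes, and 4 at the ratio limits alone, adding *Tnfrsf9* and, by its measured ratio but not by its bound, *Cd40*. The normexp values were smaller, at 0.67 for *Ltb*, 0.84 for *Tnfrsf10b* and −0.50 for *Tnfsf9*. The normexp setting adds an offset of 50 to every signal before the log, which by construction draws ratios of dim probes towards 0. The share of the offset in these changes was not tested. The median of ligands was −0.0026 after normexp and −0.094 with no filter on dim probes, and that of receptors was 0.044 when all detected probes of a gene were averaged, so that neither median has a stable sign. Of 26 genes, 22 kept their sign and *Tnfrsf14*, *Tnfrsf19*, *Tnfrsf23* and *Tnfsf8* did not. *Tnfrsf11a* counts among the 22, although 1 of its 3 detected probes was below 0 (−0.13). Of 156 single-gene values under alternatives, 127 moved by less than the SD between spots. Part of this count was fixed in advance. Scaling by the median shifted every gene by −0.05, less in size than that SD of 0.07. Averaging or restricting probes could not move a gene with 1 detected probe. The count is therefore no measure of how stable the values are. Restricting members to probes of RefSeq or Ensembl transcripts, an alternative chosen after seeing the data, left 2 lower and 2 higher genes. With 1 array per genotype no replicate could be left out. No paired analysis was possible because each group has 1 array. Signals near background limit what can be said of the 16 genes without a measured ratio and of *Cd40*, *Tnfrsf14* and *Tnfrsf23*.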
